A study of Rattus norvegicus with 6 samples.

Results

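The BCL2 family and the caspases that act with it were followed as 9 named genes: the effectors Bax and Bak1, the activators Bcl2l11 and Bbc3, the survival genes Bcl2, Bcl2l1 and Mcl1, and the initiator caspases Casp8 and Casp9. They were taken from the deposited expression table by exact gene symbol, which found 7 of the 9 among 34170 genes. No entry carried the symbol Mcl1 or Bbc3, and these genes were not analysed here. The RNA came from retinas of 6 male Sprague-Dawley rats, 3 in each group. The 3 diabetic rats had received streptozotocin, a toxin of pancreatic beta cells, as an intraperitoneal injection of 60 mg/kg repeated on 5 days, with 12 h of fasting beforehand. Diabetes was called 1 week after the last injection, at a fasting blood glucose above 16.7 mmol/L. The 3 control rats, labelled WT, had received the citrate buffer alone. The sources used here give neither the age nor the time from diagnosis to dissection, so how long the diabetic rats had been diabetic is not known. The labelled weights were 103.4 to 110.5 g in the control and 100.4 to 104 g in the diabetic rats.

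Proteins of the BCL2 family decide whether the outer mitochondrial membrane stays closed. Survival proteins such as BCL2, BCL-XL (the product of Bcl2l1) and MCL1 hold the effectors BAX and BAK in check, and BH3-only proteins such as BIM (Bcl2l11) and PUMA (Bbc3) overcome that restraint. Open effector pores release cytochrome c, which assembles with APAF1 and activates caspase-9. Caspase-8 starts the separate route from death receptors at the cell surface. In the retina this pathway is best known from developmental cell death and from the loss of photoreceptors and ganglion cells after injury. Most of its control acts on the proteins, through binding, cleavage and phosphorylation, so messenger RNA shows only the supply.

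Expression was given as FPKM, read fragments divided by the length of the gene and the size of the library, which allows levels of different genes to be set side by side. The order of the 7 genes was almost the same in every retina. Bax had the highest level, followed by Bcl2l1, Casp9, Bak1, Bcl2l11, Bcl2 and Casp8. The lowest Bax value, 19.4 FPKM, lay above the highest Bcl2l1 value of 12.3 FPKM, and the lowest Bcl2l1 value of 10.5 FPKM lay above the highest Casp9 value of 9.18 FPKM. The ranges of Casp9 and Bak1, of Bak1 and Bcl2l11, and of Bcl2l11 and Bcl2 did not overlap either. Bcl2 and Casp8 overlapped, and Bcl2 was above Casp8 in 5 of 6 libraries. By its mean FPKM, Bax stood at the 75.1 percentile of the genes tested, Bcl2l1 at 56.1, Casp9 at 49.6, Bak1 at 33.6 and Bcl2l11 at 19.7. Bcl2l1 was therefore the more abundant survival transcript of the pair measured, and Bcl2, the gene that names the family, was close to the limit of counting.

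Among all members, Bax showed the largest separation of the groups. Genes were tested with limma on log2(FPKM + 0.5) where their mean over the 6 libraries was at least 0.5 FPKM, which 16363 genes met, and p-values were adjusted over all of them at a threshold of 0.05. Of the 7 members found, 5 were tested and 0 passed, as did 0 of all genes (0%). At an unadjusted p below 0.05 there was 1 of the 5, Bax, where 19.9% of all genes tested stood at that level in either direction and 10.7% in the lower direction. The fragments behind the values could be rebuilt from FPKM and gene length, and each library held 12417686 to 19115426 of them. All 5 tested members had a log2 difference below 0, with a median of -0.12, while 49.9% of all genes tested were below 0 and their median was 0.00034. With TPM, the same fragments scaled by each library's own FPKM sum, 3 of the 5 were below 0 with a median of -0.0027, beside 31.4% of all genes.

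**Figure D1:**
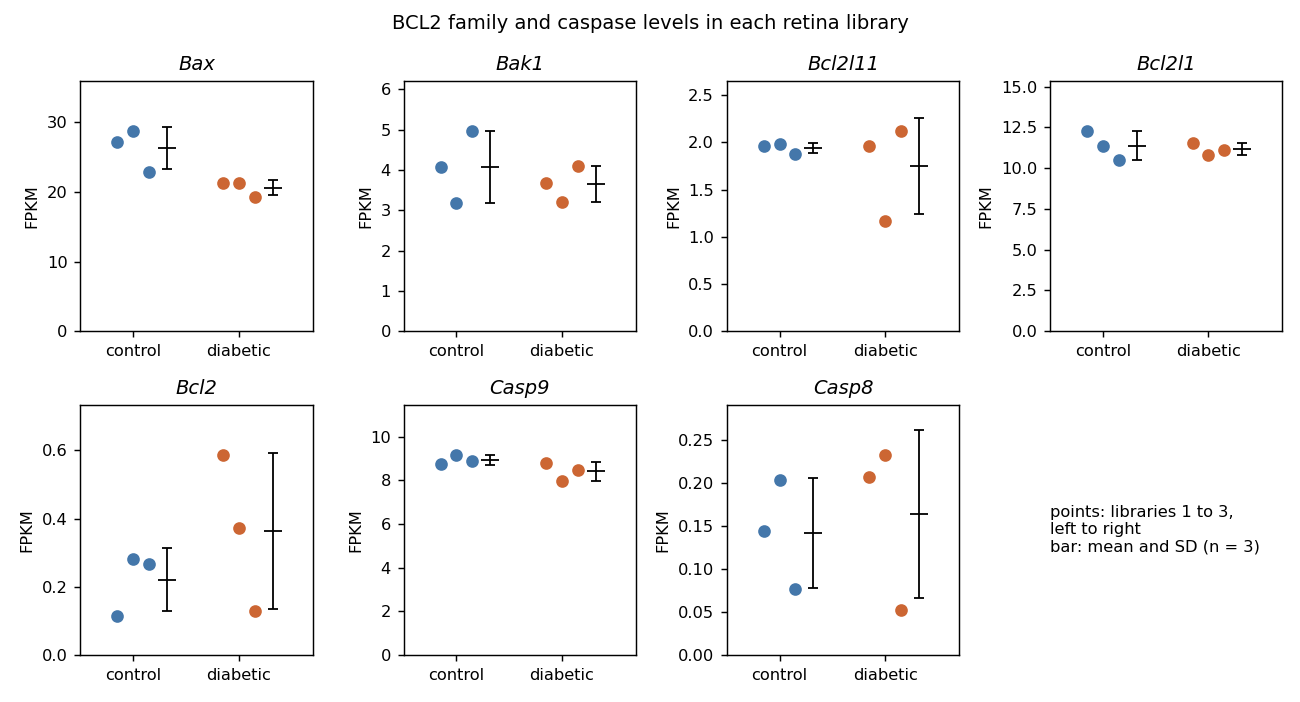
FPKM (vertical axes, each from 0) of the 7 members in the 3 control and 3 diabetic libraries, shown as points, with the mean and SD beside them (n = 3). The Bax points of the groups do not overlap (22.9 to 28.8 against 19.4 to 21.3 FPKM), and those of the other 6 genes do.

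Bax encodes an effector that moves from the cytosol to mitochondria and forms the pores. Its level was 27.2 (control 1), 28.8 (control 2) and 22.9 FPKM (control 3), against 21.3, 21.3 and 19.4 FPKM in diabetic rats 1 to 3. Every diabetic retina lay below every control retina, with control 3 nearest to the diabetic group. Bax was the 1 member of 5 tested without overlap. Groups did not overlap in 26.2% of all genes tested, 13.6% in the lower and 12.7% in the higher direction. The means were 26.3 ± 3.02 and 20.6 ± 1.10 FPKM (SD, n = 3 each), and the fitted fold was 0.79. The log2 difference was -0.34 with a standard error of 0.10 and a 95% interval from -0.58 to -0.092, so the interval of the fold runs from 0.67 to 0.94. The adjusted p was 0.17 in limma. In the order of unadjusted p, Bax was gene 1330 of those tested. Between 375 and 591 fragments stood behind each value. The table places Bax (ENSRNOG00000020876) on the minus strand of chromosome 1 (start 101451802, end 101457207), and the sources used here name no genome build. Its gene model of 1277 nt overlapped no other gene of the table.

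The distance between the groups depended on scale, on the length trend and on single libraries. With the length trend of each library removed, the Bax difference was -0.23 (adjusted p = 0.24, limma). Rescaling to TPM, which divides each library by the sum of its own FPKM, moved the median of all genes to 0.13 and the Bax difference to -0.20 (adjusted p = 0.29, limma). Without control 3 the Bax difference was -0.43 (adjusted p = 0.0586, limma), and without control 2 it was -0.27 (adjusted p = 0.374, limma). These 2 values are the ends of the range when 1 library was left out. Without diabetic 3, the lowest Bax library, Bax was no longer at an unadjusted p below 0.05 in limma, with a difference of -0.29. A retina is a mixture of cell types, and in such bulk RNA fewer cells of a type and less RNA per cell cannot be told apart.

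Of 11 marker lists for cell types, the sums of 3 did not overlap between the groups, with rod and Muller glia sums lower and amacrine sums higher in diabetic libraries, and the other 8 overlapped. The labelled tissue was borne out by its defining genes, with all 6 rod markers found at 1 FPKM or more. The 6 rod markers, led by rhodopsin, summed to 34041 to 38145 FPKM in control and 28077 to 32526 FPKM in diabetic libraries. Of them 2, Gnat1 and Rcvrn, were lower at an unadjusted p below 0.05 in limma, against 10.7% of all genes. The 5 markers of Muller glia, the radial support cells of the retina, summed to 1317 to 1510 and 885 to 1267 FPKM. Of these 5, 3 had a log2 difference below 0, the largest that of Apoe at -0.78, and 2 were above it, Aqp4 at 0.16 and Slc1a3 at 0.062. The 5 amacrine markers summed to 177.3 to 195.1 and 196.8 to 219.9 FPKM. Ganglion cell markers overlapped between groups, at 349.6 to 480.3 and 320.6 to 401.2 FPKM, and so did the 8 microglia markers at 17.5 to 28.1 and 13.2 to 18.1 FPKM. The 6 lens markers summed to 291.2 FPKM in control 3 and to between 6.79 and 38.1 FPKM in the other 5 libraries, and the 4 cornea markers to 10.9 in control 2, 13.6 in diabetic 1 and at most 4.15 FPKM elsewhere. Of the 4 endothelial markers found, Cldn5 was listed at 0 in all libraries and 1 was at 1 FPKM or more. The part of these markers in the Bax values was not tested. Control 3 had the highest lens sum and also the lowest control Bax value, so the value without it, given above, cannot separate them.

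Bak1, the other effector, resides on the mitochondrial membrane and can replace Bax in many cells. Its transcript was at 4.08 (control 1), 3.18 (control 2) and 4.97 FPKM (control 3), against 3.68, 3.21 and 4.10 FPKM in diabetic rats 1 to 3. The highest and the lowest values both came from control retinas, and the diabetic values lay between them. The log2 difference was -0.12 with a 95% interval from -0.55 to 0.30 (adjusted p = 0.737, limma), and it was 0.013 without control 3. The interval thus allows for Bak1 a difference of the size measured for Bax. Bax exceeded Bak1 by 4.61 to 9.03 times in control and by 4.72 to 6.64 times in diabetic libraries.

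Bcl2l11 encodes BIM, a BH3-only activator that several survival signals repress through FOXO factors and ERK. Bcl2l11 values were 1.96 (control 1), 1.98 (control 2) and 1.88 FPKM (control 3), against 1.96, 1.17 and 2.12 FPKM in diabetic rats 1 to 3. Diabetic 2 stood apart with the lowest value of all, from 102 fragments, while diabetic 3 had the highest. The log2 difference was -0.14 with a 95% interval from -0.64 to 0.35 (adjusted p = 0.742, limma). Without diabetic 2 it was 0.057, and with the length trend of each library removed it was -0.26. The spread was 0.052 FPKM (SD, n = 3) in control and 0.51 FPKM in diabetic retinas.

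For PUMA, a BH3-only protein, no entry had the symbol Bbc3. The table does hold 1 entry without a symbol, on the plus strand of chromosome 1 (start 78264160, end 78267802), whose description is a protein family of that kind, Bcl-2-binding component 3. The sources used here do not say whether it represents Bbc3, and it is not counted among the members. This unnamed entry was measured at 3.36 (control 1), 2.68 (control 2) and 3.35 FPKM (control 3), against 3.21, 3.65 and 4.47 FPKM in diabetic rats 1 to 3. The groups overlapped, and the log2 difference was 0.23 with a 95% interval from -0.15 to 0.61 (adjusted p = 0.469, limma). Without diabetic 3, the highest library, it was 0.12, without control 2 it was 0.14, and with TPM it was 0.37.

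Bcl2l1 encodes the survival protein BCL-XL and, by alternative splicing, a shorter form that promotes death, and a gene-level value cannot separate the forms. Bcl2l1 values were 12.3 (control 1), 11.4 (control 2) and 10.5 FPKM (control 3), against 11.6, 10.8 and 11.1 FPKM in diabetic rats 1 to 3. All 3 diabetic values lay inside the control range. The log2 difference was -0.025 with a 95% interval from -0.24 to 0.19 (adjusted p = 0.906, limma), which limits a difference in either direction to between 0.84 and 1.14 times the control level on this scale. The sign of so small a value turned with TPM (0.11), with voom on the rebuilt fragments (0.017) and without control 1 (0.029). A pseudogene of the ribosomal protein S2, LOC108350502 at 60.0 FPKM, lies within Bcl2l1 on the opposite strand over 933 bases. The labels name no strand marking for the library kit, and without it, fragments of the 2 genes cannot be separated where they overlap.

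Bcl2 itself was nearly undetected. Its values were 0.11 (control 1), 0.28 (control 2) and 0.27 FPKM (control 3), against 0.59, 0.37 and 0.13 FPKM in diabetic rats 1 to 3. These values rest on 4, 7 and 7 fragments in control and on 23, 13 and 5 fragments in diabetic libraries. Diabetic 1 and 2 had the highest values, and diabetic 3 was second lowest, so the groups overlapped. The mean over all libraries was 0.29 FPKM, below the minimum for testing. With no minimum the log2 difference was 0.23 (adjusted p = 0.652, limma). On the same scale it was 0.049 without diabetic 1, 0.12 without control 1 and 0.44 without diabetic 3. A value of 3 fragments in this gene of 2057 nt corresponds to 0.077 to 0.121 FPKM, so a difference in Bcl2 was not measurable with confidence at this depth.

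Casp9 encodes the initiator caspase of the mitochondrial route, activated on the APAF1 scaffold. Casp9 was at 8.75 (control 1), 9.18 (control 2) and 8.91 FPKM (control 3), against 8.81, 7.96 and 8.50 FPKM in diabetic rats 1 to 3. Diabetic 1 lay inside the control range, and diabetic 2 and 3 lay below it. The means were 8.95 ± 0.22 and 8.43 ± 0.43 FPKM (SD, n = 3 each), with a 1.05-fold range among control and a 1.11-fold range among diabetic libraries. The log2 difference was -0.082 with a 95% interval from -0.30 to 0.13 (adjusted p = 0.649, limma), and it was 0.049 with TPM.

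Casp8, the initiator caspase of death receptors, was the lowest member. Its values were 0.14 (control 1), 0.20 (control 2) and 0.077 FPKM (control 3), against 0.21, 0.23 and 0.052 FPKM in diabetic rats 1 to 3. The counts were 5, 5 and 2 fragments in control and 8, 8 and 2 fragments in diabetic libraries, and 2 libraries were under 3 fragments. With no minimum the log2 difference was 0.043 (adjusted p = 0.911, limma). On the same scale its sign turned without control 3 (-0.032), diabetic 1 (-0.0081) or diabetic 2 (-0.034), and it was 0.17 without diabetic 3. Casp8 amounted to 0.0158 ± 0.0068 of the Casp9 level in control and 0.0196 ± 0.0120 in diabetic retinas (SD, n = 3 each).

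Ratios between members are free of a scale factor common to a library, because both values come from 1 library. They are not free of a trend with gene length, and Bax has 1277 nt where Bcl2l1 has 4118 nt. With each library's length trend removed, the log2 differences of Bax and Bcl2l1 were -0.23 and -0.10, beside -0.34 and -0.025 as deposited. Bax over Bcl2l1, an effector over a survival gene, was 2.21 (control 1), 2.53 (control 2) and 2.18 (control 3), against 1.84, 1.97 and 1.74 in diabetic rats 1 to 3. The groups did not overlap in this ratio, with means of 2.31 ± 0.19 and 1.85 ± 0.11 (SD, n = 3 each). The ratio holds the same Bax values as above and adds no independent evidence. Bax over Bcl2, the ratio most often quoted in work on apoptosis, ran from 86.3 to 238.0 in control and from 36.2 to 150.4 in diabetic libraries. It overlapped and moved with the few fragments of Bcl2, as control 1 with 4 fragments had the highest ratio and diabetic 1 with 23 the lowest. Bcl2l11 over Bcl2l1 was 0.16 to 0.18 in control and 0.11 to 0.19 in diabetic libraries.

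**Figure D2:**
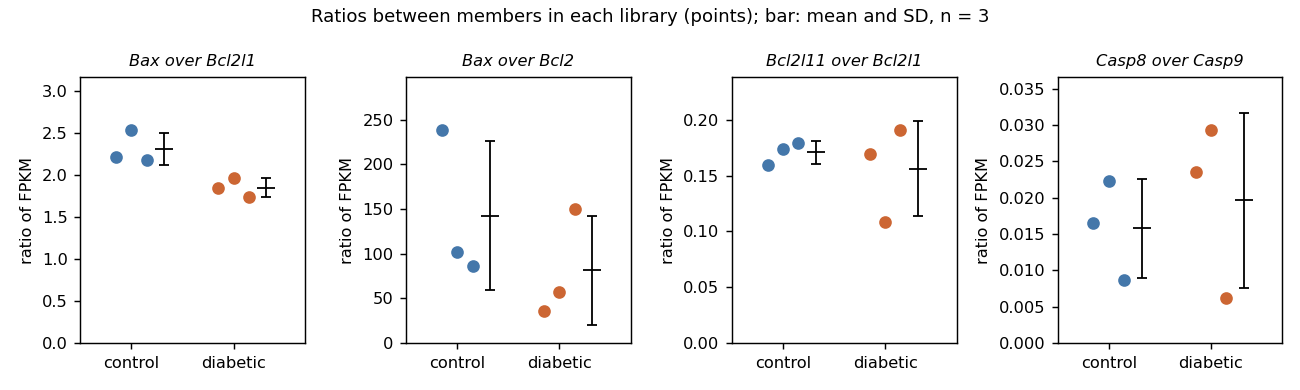
Ratios of FPKM between 2 members (vertical axes, each from 0) in the 3 control and 3 diabetic libraries, with mean and SD (n = 3). Only in Bax over Bcl2l1 do the points of the groups not overlap (2.18 to 2.53 against 1.74 to 1.97).

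The other genes of the pathway were taken from 7 lists with 68 genes, of which 66 were found and 52 tested. Again 0 passed. At an unadjusted p below 0.05 there were 9 lower and 8 higher genes in diabetic retina, against 10.7% and 9.15% of all genes tested. Their median log2 difference was -0.046.

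Among the other survival genes, Bcl2l2 encodes BCL-W, a relative of BCL-XL. At a mean of 90.2 ± 3.08 FPKM in control it was far above Bcl2l1 per length of gene. It was measured at 89.5 (control 1), 93.6 (control 2) and 87.5 FPKM (control 3), against 76.0, 78.6 and 79.0 FPKM in diabetic rats 1 to 3. The groups did not overlap, and the log2 difference was -0.21 with a standard error of 0.066 (adjusted p = 0.17, limma). Under quantile normalization it was -0.058 (adjusted p = 0.662, limma) and with TPM it was -0.074. It was the 1 of 3 tested genes of its list at an unadjusted p below 0.05, and without control 2 there was none. Bax over Bcl2l2 overlapped between the groups, at 0.26 to 0.31 in control and 0.24 to 0.28 in diabetic libraries.

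Among 8 tested BH3-only and effector relatives, 7 had a difference below 0, beside 49.9% of all genes tested, and Bmf was above it. The list median was -0.12, and 0.0074 with TPM. Bmf encodes a BH3-only protein that is tethered to the cytoskeleton. It was measured at 21.9 (control 1), 25.4 (control 2) and 28.3 FPKM (control 3), against 35.7, 30.3 and 37.5 FPKM in diabetic rats 1 to 3. Every diabetic value lay above every control value, as in 12.7% of all genes tested. The log2 difference was 0.45 with a 95% interval from 0.16 to 0.74 (adjusted p = 0.147, limma), and its adjusted p ranged from 0.0665 to 0.349 over the alternatives. Its level was above that of Bcl2l11 in all 6 libraries. Bmf was the 1 gene of the list at an unadjusted p below 0.05, a count that was 3 without control 3 and 2 without diabetic 1 or diabetic 3. Bad, a BH3-only protein silenced by survival kinases, had a log2 difference of -0.17, or -0.032 with TPM. Bid, which links caspase-8 to the mitochondrial route, had -0.067, or 0.032 with TPM and 0.0044 without diabetic 1.

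Other caspases gave 0 of 5 tested genes at an unadjusted p below 0.05 in limma, and 1 without diabetic 3. Casp2 had the means 12.4 ± 1.07 (control) and 12.4 ± 1.05 FPKM (diabetic; SD, n = 3 each), a log2 difference of -0.00089 whose sign turned with several settings. Casp6 and Casp14 were listed at 0 in all 6 libraries.

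The apoptosome list held the most genes at an unadjusted p below 0.05. There were 5 lower and 2 higher of 9 tested, against 10.7% and 9.15% of all genes tested. On the log2 scale its median was -0.24, beside 0.00034 for all genes tested. The 7 became 4 without control 1 and without any 1 of the 3 diabetic libraries. Diablo, which blocks inhibitors of apoptosis, was measured at 38.6 (control 1), 39.8 (control 2) and 37.7 FPKM (control 3), against 30.4, 31.6 and 31.2 FPKM in diabetic rats 1 to 3, a log2 difference of -0.31. The entry named Cycs, for cytochrome c, went with a difference of -0.39 and the flavoprotein gene Aifm1 with -0.31. Cycs has near-identical copies in mammalian genomes, so its value is uncertain where reads could be divided among them. The gene length of this entry, 318 nt, fills its whole span on chromosome 18 (start 62476383, end 62476700), so it holds no intron. Whether it is the Cycs gene itself or such a copy is not known here. With TPM these differences were -0.18, -0.26 and -0.17, and with the length trend removed they were -0.21, -0.29 and -0.29. In the higher direction Apaf1, the scaffold of the apoptosome, had 0.27, which was 0.13 with the length trend removed. Birc6, an inhibitor of apoptosis, had 0.83, and the inhibitor gene Xiap, not at an unadjusted p below 0.05, had 0.42, with control 1 lowest in both (5.15 and 31.9 FPKM). Without control 1 they were 0.53 and 0.19, and with the length trend removed they were 0.56 and 0.41. None of these genes passed, with adjusted p from 0.129 to 0.272 in limma.

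**Figure D3:**
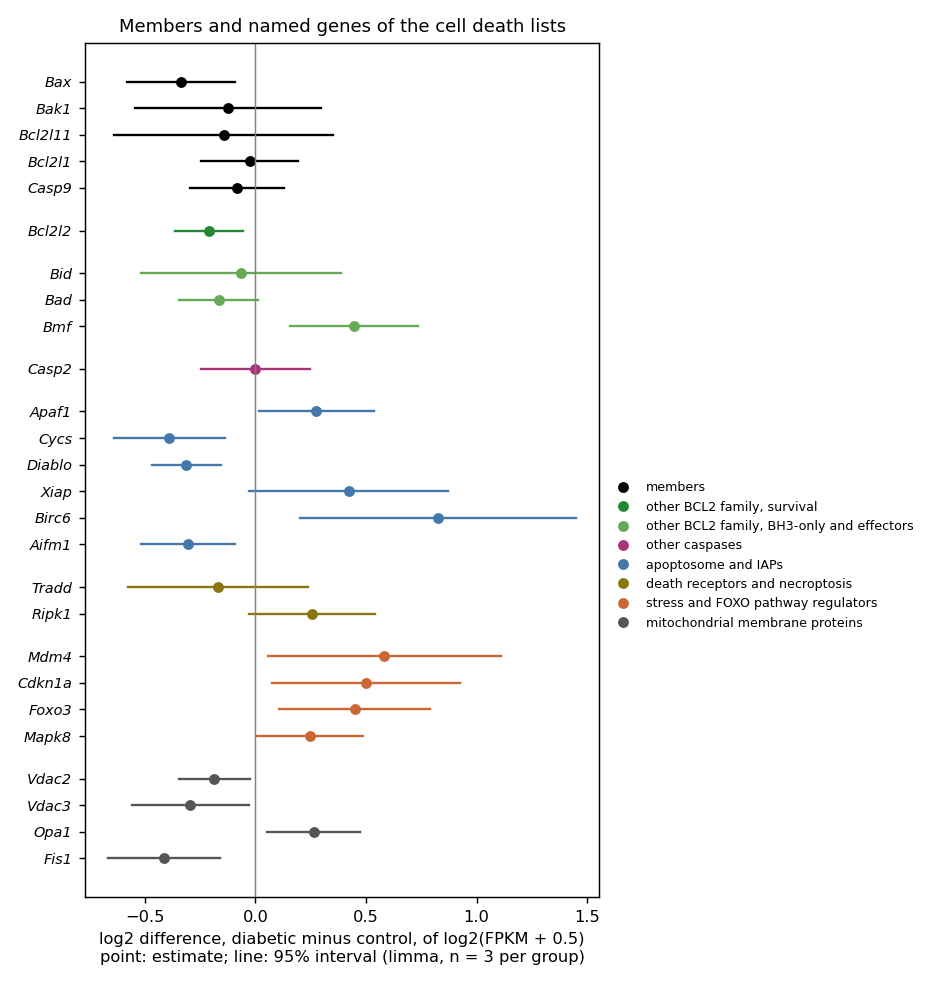
Log2 differences, diabetic minus control (horizontal axis), of the 5 tested members and the named genes of 7 pathway lists, with 95% intervals from limma as lines (n = 3 per group). The intervals of Bax (-0.58 to -0.092) and Bmf (0.16 to 0.74) lie on opposite sides of 0, and 0 genes passed the adjusted threshold.

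Death receptor and necroptosis genes had 0 of 5 tested genes at an unadjusted p below 0.05 in limma. The kinase gene Ripk1 was at 6.48 ± 0.75 and 7.80 ± 0.60 FPKM (log2 difference 0.25, or 0.16 without control 1). Its groups did not overlap, as in 12.7% of all genes tested in the higher direction. The adaptor gene Tradd was at 4.21 ± 0.75 and 3.67 ± 0.57 FPKM. Tradd overlaps RGD621098, at 13.2 FPKM, on the opposite strand.

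A list of 12 regulators of stress and FOXO pathways, some of which can induce BH3-only genes, had 8 log2 differences above 0, beside 50.1% of all genes tested. Of the 12, 4 were higher at an unadjusted p below 0.05, against 9.15% of all genes. The median of 0.16 was 0.030 without control 1, 0.27 without control 3 and 0.30 with TPM. Cdkn1a, an inhibitor that halts the cell cycle, was measured at 2.56 (control 1), 3.48 (control 2) and 3.88 FPKM (control 3), against 4.04, 5.18 and 5.35 FPKM in diabetic rats 1 to 3, a log2 difference of 0.50. Foxo3, a transcription factor that can induce Bcl2l11, had 0.45, Mdm4 had 0.58 and the stress kinase gene Mapk8 had 0.24, or 0.14 without control 1. The Foxo3 and Mapk8 groups did not overlap, as in 12.7% of all genes tested in the higher direction, and the Mdm4 groups did. Adjusted p was between 0.176 and 0.249 in limma for these 4 genes. The count of 4 was 1 without diabetic 2, and 2 without control 1, diabetic 1 or diabetic 3.

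A list of 10 proteins of the mitochondrial membranes, mostly channels, fission factors and fusion factors, had 7 log2 differences below 0, beside 49.9% of all genes tested. Its median was -0.24, and it ranged from -0.30 to -0.16 when 1 library was left out. At an unadjusted p below 0.05 there were 3 lower genes and 1 higher, Opa1, against 10.7% and 9.15% of all genes tested. Fis1, a mitochondrial fission factor, had -0.41, and the channel gene Vdac2, whose product binds BAK, had -0.19. The log2 difference of Vdac3 was -0.30. Opa1, which shapes the inner membrane and its cristae, had 0.26. Under quantile normalization Vdac2 was -0.015 and Vdac3 was -0.13. The count of 4 was 1 without control 1 or control 2, and 2 without diabetic 2 or diabetic 3.

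**Figure D4:**
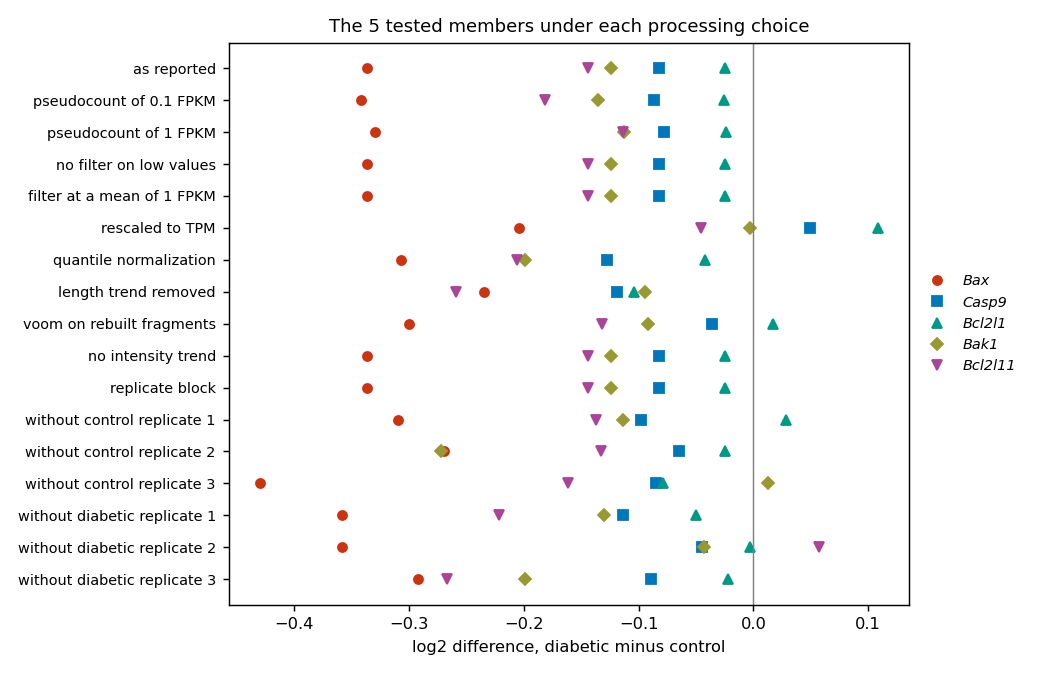
Log2 differences, diabetic minus control (horizontal axis), of the 5 tested members under each processing choice (rows). Bax lies between -0.43 and -0.20 in all rows, while Bcl2l1 lies on both sides of 0, from -0.10 to 0.11.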

How the data were processed

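Poly-A RNA libraries from 6 retinas underwent paired-end sequencing, per the labels' protocols. HISAT2 2.0.5 is named for alignment, per the submitters' processing notes, and the sources used here name no counting tool, genome build or annotation. What the authors deposited is 1 FPKM table with gene length and coordinates, per the file headers. In every library 100% of the values above 0, multiplied by gene length, came within 0.05 of a whole multiple of 1 step, which gave the rebuilt fragments. Floors of 3 fragments cover counting error only.

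Genes were tested with limma 3.58.1 in R 4.3.3 on log2(FPKM + 0.5), which understates changes of low genes, with group as the only term, an intensity trend and Benjamini-Hochberg adjustment. Alternatives were other pseudocounts and minimum levels, TPM, quantile normalization, removal of each library's length trend, voom on rebuilt fragments, no intensity trend, a replicate block, and each library left out. Each library has its own labelled body weight. The members and lists were chosen with earlier results of these data known. Named genes are all members, from each list the genes at an unadjusted p below 0.05 (at most 4 by smallest p, otherwise the 2 with the highest mean), and the reference genes Bcl2l2, Bid, Bad, Apaf1, Cycs and Xiap. Some genes this rule would name are not reported here. The ratios of Bax to Bak1 and Bcl2l2, and the names Casp6 and Casp14, were chosen after their values were seen. Marker lists of ganglion, bipolar, amacrine, endothelial, pigment epithelium and blood cells were also summed. The bipolar sums were 189.3 to 250.6 FPKM in control and 214.4 to 242.2 FPKM in diabetic libraries, those of pigment epithelium 181.5 to 213.2 and 120.7 to 203.2, of endothelium 46.0 to 55.5 and 43.6 to 64.4, and of blood 41.5 to 53.1 and 41.2 to 54.6. Of the 6 pigment epithelium markers, 4 had a log2 difference below 0 and 2 above it. At an unadjusted p below 0.05 in limma 3 were lower, against 10.7% of all genes. These were Tyrp1 (-1.25), Pmel (-1.03) and Rlbp1, which is also in the Muller glia list. Libraries of a group differed by more than sampling noise, with a chi-square of 10.0 or more for each degree of freedom. The fit was tested on simulated data of 16363 genes for this comparison, diabetic against control. It found 32.0% of 50 changes of 1.5-fold, 72.0% of 50 of 2-fold and 94.0% of 100 of 4-fold. It called 148 genes there, against 0 in the measured libraries. The simulated noise was drawn independently for each gene, and only genes above a higher minimum level were changed. Trends shared by the genes of a library were not simulated. Whether these shares hold for the measured libraries was not tested. Figures were drawn with matplotlib 3.10.9.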

Additional observations from a re-analysis of the deposited data

How the results depend on the processing

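Of the members, 0 passed under every alternative run. Over all genes the count was 0, except 2 with voom on rebuilt fragments, and it ranged from 0 to 4 when 1 library was left out, with 1 without control 2, 4 without diabetic 1 and 1 without diabetic 2. Bax kept its direction throughout. The count of members at an unadjusted p below 0.05 was 0 with TPM, and it ranged from 0 to 1 when 1 library was left out, being 0 without diabetic 3. With TPM the sign turned for Bcl2l1 (0.11), Casp9 (0.049), Bid (0.032) and Casp2 (0.13), and with voom for Bcl2l1 (0.017) and Casp2 (0.047). When 1 library was left out the ranges crossed 0 for Bak1 (-0.27 to 0.013), Bcl2l1 (-0.079 to 0.029), Bcl2l11 (-0.27 to 0.057), Casp8 (-0.034 to 0.17, below the minimum for testing), Bid (-0.15 to 0.0044) and Casp2 (-0.059 to 0.064). With TPM 692 genes were lower and 3009 higher at an unadjusted p below 0.05, against 1757 and 1498 as deposited. These counts were 1137 and 929 without diabetic 2, and 1148 were lower without control 2.

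With TPM the list medians were 0.15 for survival genes, 0.0074 for BH3-only genes, 0.13 for other caspases, -0.11 for the apoptosome, 0.30 for stress and FOXO regulators and -0.10 for mitochondrial membrane proteins. With the length trend removed they were 0.13 for survival genes and -0.18 for the apoptosome. The survival median was -0.10 with a minimum of 1 FPKM, and the median of mitochondrial membrane proteins was -0.071 under quantile normalization. When 1 library was left out, medians ranged from -0.15 to 0.17 for survival genes, from -0.17 to 0.033 for other caspases, from -0.26 to -0.17 for the apoptosome, from 0.030 to 0.27 for stress and FOXO regulators and from -0.30 to -0.16 for mitochondrial membrane proteins. Of the 5 tested members, 3 were below 0 with TPM, 4 with voom and 4 without control 1, control 3 or diabetic 2. With TPM all genes of a library are scaled by the same factor, and the median of all genes tested moved to 0.13 as well. The cause of the differing FPKM sums and of the other shifts was not tested.

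Deviations from the group mean in libraries with 1 replicate number had correlations of -0.054, -0.076 and 0.00061. Those of unlike numbers ran from -0.035 to 0.092. With 3 libraries per group these deviations are tied to each other, so the check cannot settle whether the numbers pair the samples. With a replicate block 0 genes passed, and the Bax log2 difference was -0.34 (adjusted p = 0.233, limma). Depth limits Bcl2 and Casp8, which rest on 2 to 23 fragments per library.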
